A study of Mus musculus with 6 samples.

Results

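The TREM family of myeloid receptors, its signalling adaptors and the kinase Syk were examined in cultured mouse dendritic cells with and without DB2313. The 8 genes were chosen by name: the receptors Trem1, Trem2, Trem3, Treml2 and Treml4, the adaptors Tyrobp (DAP12) and Hcst (DAP10), and Syk. All 8 were found among the 54532 genes of the count table, and all 8 passed the filter on low counts that left 14174 genes for testing. RNA-seq had been done on 3 control libraries and 3 libraries from cells given DB2313, all of cells labelled dendritic cell and kept in the same 1640 medium with serum, whereas the text of the study speaks of macrophages. DB2313 is a compound that the study describes as an inhibitor of Spi1 (PU.1), the ETS transcription factor that myeloid cells depend on. The labels gave no strain, age, dose or duration of treatment, and nothing said that the replicates came from separate animals, so the p-values measure only the spread between these libraries. In the table the DB2313 libraries were taken to be the columns named after Spi1, on which every direction given here depends.

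TREM receptors are immunoglobulin-like proteins at the surface of monocytes, macrophages, dendritic cells and neutrophils. Most have a very short tail and signal through Tyrobp, whose tyrosine motif (ITAM), once phosphorylated by Src-family kinases, recruits Syk, whereas Hcst carries a different motif that recruits phosphoinositide 3-kinase. Trem1 amplifies inflammatory responses to microbial products, and Trem2 senses lipids and lipoproteins and is a marker of lipid-laden macrophages in atherosclerotic plaques. PU.1 binds purine-rich sequences around a GGAA core.

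The libraries held 16146743 to 19764677 counts. Replicates differed by more than sampling noise, with a chi-square per gene of 5.06 to 5.61 between control libraries and 8.06 to 19.7 between DB2313 libraries. Spi1 itself was measured at 366 ± 18.4 CPM in control (SD, n = 3; CPM are counts scaled to library sizes adjusted by TMM) and at 329 ± 20.1 CPM after DB2313 (SD, n = 3), and its log2 fold change of -0.15 did not pass (edgeR adjusted p = 0.206). Because DB2313 is described as acting on the Spi1 protein, that level is no check of the treatment. Dendritic cell and macrophage markers were both abundant, with 17 of 20 and 15 of 20 genes above 10 CPM, so the labelled cell type could not be told from macrophages by these lists. As these are bulk libraries, fewer cells of a type and less RNA per cell cannot be told apart.

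The regions just before the transcription start are shown because the compound is described as acting on a factor that binds DNA. RefSeq sequences (GRCm38.p6) were found for 5 of the 8 genes, namely Hcst, Syk, Trem1, Trem2 and Treml4, and those that overlap no annotated exon, all but the windows of Syk, are printed. The 250 bases before the start are given 5′ to 3′ on the strand of the gene, with capitals for matches to GAGGAA or AGGAAGT on either strand. They lie at chr17:48232489-48232738 (plus strand), chr17:48346151-48346400 (plus strand), chr17:48264045-48264294 (plus strand) and chr7:30419855-30420104 (minus strand).
Trem1: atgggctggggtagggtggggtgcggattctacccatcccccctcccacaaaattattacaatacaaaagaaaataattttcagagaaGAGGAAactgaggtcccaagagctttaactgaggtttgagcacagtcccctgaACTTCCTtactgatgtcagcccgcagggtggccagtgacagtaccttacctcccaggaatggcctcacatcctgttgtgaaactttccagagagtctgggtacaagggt
Trem2: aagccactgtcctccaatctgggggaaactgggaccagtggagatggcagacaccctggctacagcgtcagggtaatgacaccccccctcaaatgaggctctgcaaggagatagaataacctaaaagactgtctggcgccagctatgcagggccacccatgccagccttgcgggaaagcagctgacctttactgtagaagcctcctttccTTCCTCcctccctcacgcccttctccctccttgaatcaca
Treml4: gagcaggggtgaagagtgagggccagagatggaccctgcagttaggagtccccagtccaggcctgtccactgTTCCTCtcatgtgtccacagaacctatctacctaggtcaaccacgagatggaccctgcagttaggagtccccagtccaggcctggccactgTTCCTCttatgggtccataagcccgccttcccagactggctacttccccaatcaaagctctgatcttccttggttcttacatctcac
Hcst: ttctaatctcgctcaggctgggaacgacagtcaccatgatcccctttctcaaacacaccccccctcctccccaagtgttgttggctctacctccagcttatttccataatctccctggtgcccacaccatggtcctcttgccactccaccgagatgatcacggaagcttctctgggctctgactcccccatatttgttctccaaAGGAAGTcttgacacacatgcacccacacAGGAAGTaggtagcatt
The Trem1 window held GAGGAA once, starting 162 bases before the start site, and AGGAAGT once on the opposite strand, 109 bases before it. The Trem2 window held GAGGAA once on the opposite strand, 40 bases before the start, and that of Treml4 held it on the opposite strand at 178 and at 87 bases. The Hcst window held AGGAAGT at 46 and at 17 bases and no GAGGAA. Of the Syk windows, which are not printed, 1 held GAGGAA at 9 bases and the other held neither motif. The letters of these motifs can overlap, but no pair did so in these windows. Among all 32851 promoter windows of that length, 23.3% held GAGGAA and 7.69% held AGGAAGT, and a match describes only the letters.

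With DB2313, 3 of the 8 genes rose, 0 fell and 5 did not pass in edgeR's quasi-likelihood test. DESeq2 and limma-voom also called 0 of them lower, and 1, Treml4, was lower at an unadjusted p under 0.05. Across all genes tested, 4.66% were called higher, 5.94% lower and 10.6% in either direction at an adjusted p under 0.05 in that test. Trem1 rose most, followed by Trem2 and, close to the threshold, Tyrobp. Values of the groups were fully apart for 4 of the 8 genes, Trem1, Trem2, Treml4 and Tyrobp, where 27.4% of all genes tested did not overlap. The median log2 fold change was 0.25 over the 8 genes and 8.2e-04 over all genes tested.

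Trem1 (ENSMUSG00000042265, chromosome 17, 48232768 to 48246924, plus strand, GRCm38) was measured at 21.1, 20.6 and 23.0 CPM in control replicates 1 to 3 and at 39.1, 41.1 and 41.04 CPM in DB2313 replicates 1 to 3. Every DB2313 library lay well above every control library, and the values within each group were close together. The gene rose 1.87-fold (95% confidence interval 1.63 to 2.15), or by 0.90 ± 0.09 (SE) on the log2 scale (edgeR adjusted p = 2.26e-05). That log2 fold change was at the 98.02 percentile of all genes tested. A processed pseudogene on the opposite strand, AC241601.2, lies within Trem1 and had 1 to 8 counts per library, against 329 to 819 for Trem1.

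Trem2 (ENSMUSG00000023992, chromosome 17, 48346401 to 48354147, plus strand) was at 113, 104 and 116 CPM in the control libraries and at 155, 154 and 143 CPM with DB2313. The groups did not overlap, and DB2313 replicate 3 was the lowest of the treated libraries. Trem2 rose 1.36-fold (95% confidence interval 1.21 to 1.51), a log2 fold change of 0.44 ± 0.07 (SE) with an edgeR adjusted p of 0.00131. Trem1 and Trem2 stayed under an adjusted p of 0.05 in every alternative run, including without any 1 library.

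Treml4, a receptor known to bind dying cells and to amplify Toll-like receptor 7 responses, had a lower mean with DB2313 and did not pass. It was at 9.71, 7.97 and 9.66 CPM in control and at 6.98, 6.22 and 4.99 CPM in the treated libraries, from 83 to 158 counts per library. The groups did not overlap, yet the log2 fold change of -0.59 ± 0.18 (SE) just missed the threshold (edgeR adjusted p = 0.0503). Its fold of 0.666 had a 95% confidence interval of 0.510 to 0.869. Without DB2313 replicate 1 the adjusted p was 0.0207, and without DB2313 replicate 3 it was 0.1.

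Trem3, an activating receptor that mice express on macrophages and neutrophils, was measured at 7.32, 8.84 and 10.8 CPM in control and at 10.7, 9.68 and 12.7 CPM with DB2313. The groups overlapped, and the difference on the log2 scale was 0.29 ± 0.17 (SE, edgeR adjusted p = 0.338), with a 95% confidence interval of -0.074 to 0.66. Treml2, a receptor of B cells, T cells and macrophages that is not known to need Tyrobp, was at 91.3, 77.4 and 89.1 CPM in control and at 89.9, 93.6 and 103 CPM with DB2313. The groups overlapped here as well, and the log2 fold change was 0.15 ± 0.09 (SE, edgeR adjusted p = 0.310), with an interval of -0.030 to 0.34.

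**Figure D1:**
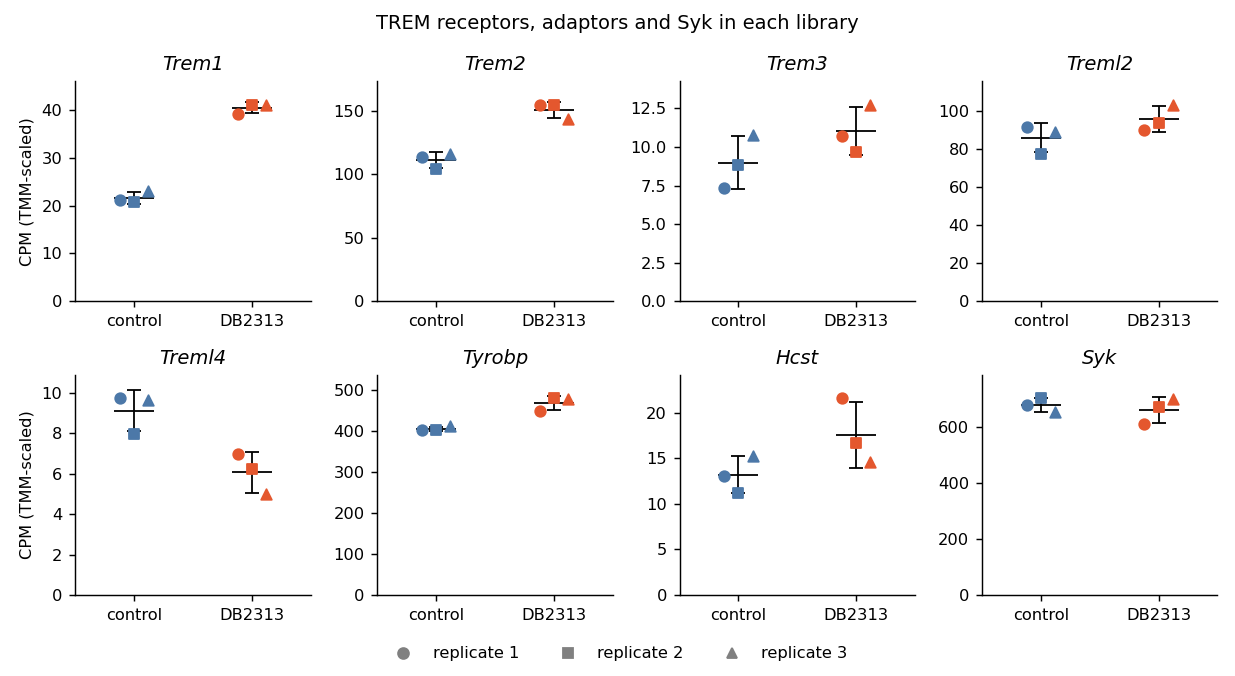
Level of each of the 8 genes in every library, in CPM on axes that start at 0. Points are libraries (shape gives the replicate), and black bars are the mean and SD of 3 libraries. The DB2313 points lie above all control points for Trem1, Trem2 and Tyrobp and below them for Treml4, whereas the groups overlap for Trem3, Treml2, Hcst and Syk.

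The 5 receptor genes lie together on chromosome 17, over 121 kb and on the same strand, in the order Trem1, Trem3, Treml4, Treml2 and Trem2. Changes along this stretch were not alike. Trem1 rose at its left end and Trem2 at its right end, while between them Trem3, Treml4 and Treml2 did not pass. Of these, Treml4 had a lower mean with DB2313. B430306N03Rik, which lies between Treml2 and Trem2, had a log2 fold change of -0.054 (edgeR adjusted p = 0.774). Treml1, the platelet member of the family next to Trem2, had 19 to 47 counts per library, with a log2 fold change of -0.13 ± 0.39 (SE, edgeR adjusted p = 0.888). Nfya, a subunit of a general promoter-binding factor that lies just beyond the cluster, fell (log2 fold change -0.30, edgeR adjusted p = 0.0115). These neighbours were picked by position.

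Tyrobp (ENSMUSG00000030579, chromosome 7, 30413760 to 30417585, plus strand), the shared adaptor, was at 400.4, 402 and 410.5 CPM in control and at 448, 478 and 476 CPM with DB2313. All treated libraries lay above all control libraries, and the 3 control values were within a narrow range. The rise was small, 1.16-fold (95% confidence interval 1.05 to 1.27), or 0.21 ± 0.06 (SE) on the log2 scale (edgeR adjusted p = 0.0494). The call is fragile. With an offset for gene length the log2 fold change fell to 0.11 (adjusted p = 0.348), and without control replicate 1, 2 or 3 or DB2313 replicate 2 the adjusted p was 0.163, 0.157, 0.140 and 0.239.

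Hcst (ENSMUSG00000064109, chromosome 7, 30417712 to 30419854, minus strand) lies tail to tail with Tyrobp, with 126 bp between their ends. It was at 13.1, 11.2 and 15.2 CPM in control and at 21.6, 16.7 and 14.5 CPM with DB2313. The treated libraries were spread, and DB2313 replicate 3 lay within the control range. The log2 fold change of 0.41 ± 0.16 (SE) did not pass (edgeR adjusted p = 0.121, 95% confidence interval 0.075 to 0.75). Without DB2313 replicate 3 it was 0.53 with an adjusted p of 0.0175, and without DB2313 replicate 1 it was 0.25 with an adjusted p of 0.365.

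Syk (ENSMUSG00000021457, chromosome 13, 52583173 to 52648792, plus strand), the kinase that binds the phosphorylated ITAM, had the highest counts of the 8 genes, 10020 to 13385 per library. Its CPM was 677, 701 and 654 in control and 608, 671 and 699 with DB2313. The groups overlapped, and the log2 fold change was -0.038 ± 0.07 (SE, edgeR adjusted p = 0.803). The 95% confidence interval of the fold was 0.878 to 1.08.

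**Figure D2:**
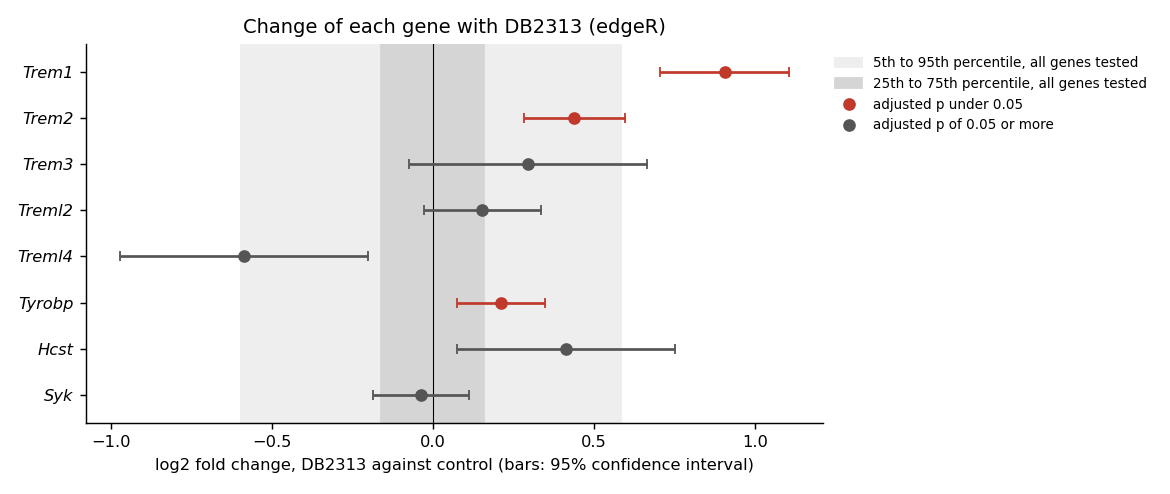
Log2 fold change of each gene, DB2313 against control, with its 95% confidence interval from edgeR. Grey bands show where the middle of all 14174 genes lies. Trem1 stands outside the wider band, Treml4 lies near its lower edge, and the interval of Syk spans 0.

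The levels of the genes were compared per kilobase of the lengths in the deposited table. These give 1 length per gene, such as 667 bp for Tyrobp, 4946 bp for Trem2 and 9362 bp for Syk. Which transcripts were expressed was not examined, and a gene expressed as a shorter transcript is understated. The order, multiples and shares between genes therefore depend on these lengths. In control, Tyrobp was highest at 606 ± 7.96 CPM per kilobase (SD, n = 3), 8.38 times Syk at 72.3 ± 2.52. Then came Trem2 (22.5 ± 1.30), Hcst (18.3 ± 2.78), Treml2 (17.5 ± 1.52), Trem3 (9.04 ± 1.75), Trem1 (7.20 ± 0.422) and Treml4 (4.56 ± 0.498 CPM per kilobase). The libraries of Trem2 and Hcst overlapped, as did those of Hcst and Treml2 and those of Trem3 and Trem1 across libraries. Within each control library Trem2 was nevertheless above Hcst and Trem3 above Trem1, whereas the order of Hcst and Treml2 varied. With DB2313 the order changed at 1 place. Trem1 moved to 13.5 ± 0.376 CPM per kilobase, above Trem3 at 11.1 ± 1.57, and their libraries no longer overlapped.

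The make-up of the receptor transcripts moved accordingly. Trem1 made up 11.6%, 12.2% and 11.8% of the summed receptor CPM per kilobase in the control libraries and 16.98%, 17.9% and 17.3% in the DB2313 libraries. Treml4 made up 8.01%, 7.05% and 7.44% in control and 4.55%, 4.06% and 3.16% with DB2313. The share of Treml2 was also smaller without overlap, at 30.6%, 27.8% and 27.9% in control and 23.8%, 24.8% and 26.6% with DB2313. Its own level did not pass. Trem2 remained the largest part, from 36.2% to 37.7% in control and from 36.7% to 40.7% with DB2313, and these ranges overlapped. The summed receptor level was 60.8, 56.6 and 65.01 CPM per kilobase in control and 76.9, 76.8 and 78.98 with DB2313, without overlap. Per kilobase, Tyrobp exceeded the summed receptors 9.47 to 10.7 times in control and 8.75 to 9.34 times with DB2313.

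**Figure D3:**
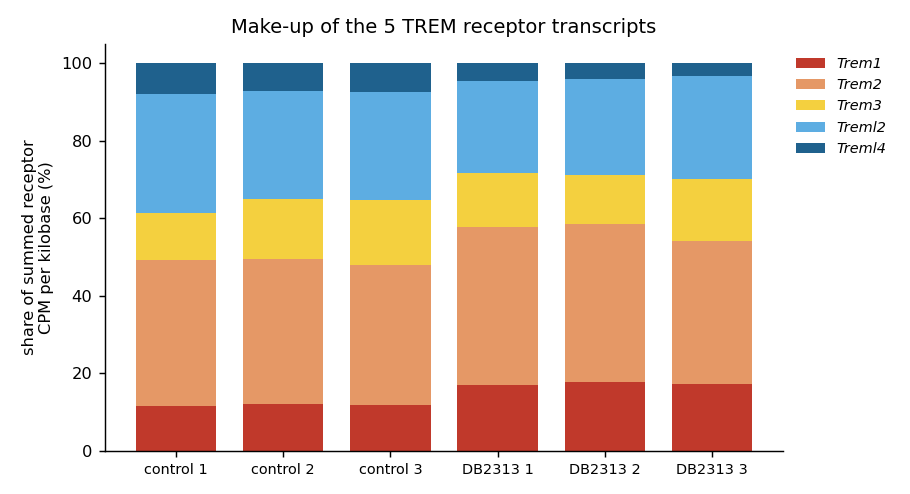
Share of each receptor in the summed CPM per kilobase of the 5 TREM receptors, in percent, for every library. The part of Trem1 is wider and those of Treml2 and Treml4 are narrower in each of the 3 DB2313 libraries than in any control library.

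Ratios of raw counts within a library need no scaling between libraries, and 5 were compared. They are not corrected for a bias with gene length that differs between libraries. With the gene length offset the log2 fold change was 0.11 for Tyrobp, 0.023 for Syk and 0.46 for Trem2. Without it the values were 0.21, -0.038 and 0.44. Trem1 to Trem2 was 0.186, 0.198 and 0.198 in control and 0.253, 0.266 and 0.286 with DB2313, so Trem1 gained on Trem2 in every treated library (log2 difference 0.47). Trem2 to Tyrobp was 0.283, 0.259 and 0.283 in control and 0.345, 0.322 and 0.301 with DB2313 (log2 difference 0.23). Syk to Tyrobp was 1.69, 1.74 and 1.59 in control and 1.36, 1.40 and 1.47 with DB2313 (log2 difference -0.25). Trem2 to Syk was 0.167, 0.149 and 0.178 in control and 0.254, 0.230 and 0.205 with DB2313 (log2 difference 0.48). For these 4 ratios the groups did not overlap, and the exact two-sided permutation test gave p = 0.1 each, the smallest that 3 against 3 libraries allow (0.125 after Benjamini-Hochberg adjustment over the 5). Hcst to Tyrobp was 0.0327, 0.0279 and 0.0371 in control and 0.0481, 0.0348 and 0.0306 with DB2313, with overlap (exact permutation p = 0.5, adjusted 0.5). Its log2 difference of 0.20 rested on DB2313 replicate 1, without which it was 0.011.

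**Figure D4:**
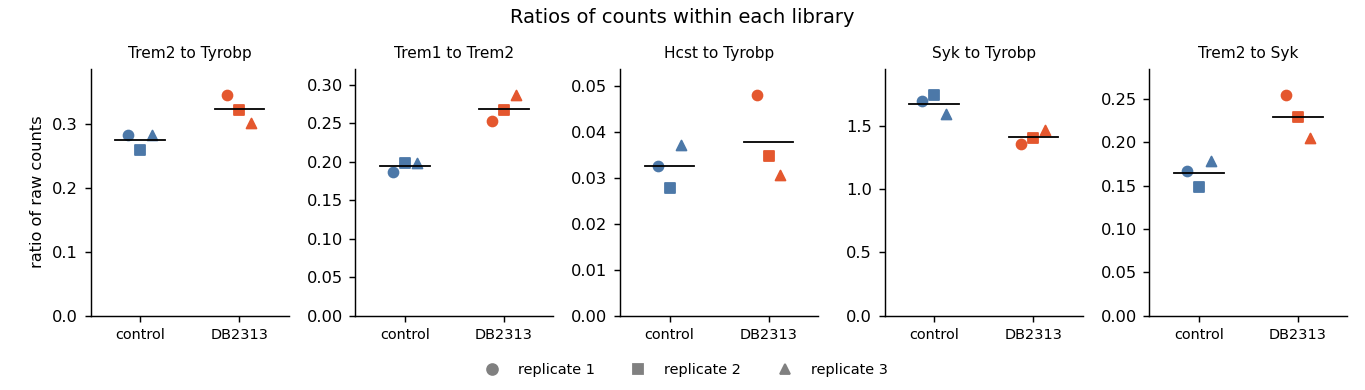
Ratios of raw counts between pairs of the genes in every library, on axes that start at 0. Lines are group means of 3 libraries. The groups separate for every ratio except Hcst to Tyrobp, where DB2313 replicates 2 (0.0348) and 3 (0.0306) lie inside the control range.

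The genes whose log2 CPM ran most like that of Trem2 and Tyrobp over the 6 libraries were looked up among the protein-coding genes tested. For Trem2 these were Taf8, Psen2 and Ldhb, with a Pearson r of 0.997 each. For Tyrobp they were Adcy3 (r = 0.999), Tcn2 (r = 0.993) and Enkur (r = 0.993). Psen2 encodes a presenilin, a catalytic subunit of gamma-secretase, the protease that cuts the membrane stub of Trem2 after shedding. Ldhb itself did not pass (edgeR adjusted p = 0.402). The 6 points share the group difference, and the genes were picked for the highest r among all protein-coding genes tested. These are therefore descriptions only.

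Genes of a wider list of paired receptors and adaptors were changed in both directions. The list was not limited to receptors that pair with ITAM adaptors, and it also held Csf1r, Itgb3 and Treml1. Of its 36 genes, 33 were in the table and 28 tested, of which 7 rose, 4 fell and 17 did not pass. Thus 39.3% were called against 10.6% of all genes tested. The median log2 fold change was 0.11. Clec4n (Dectin-2), a receptor for fungal mannans, rose from 484 ± 32.7 to 774 ± 27.6 CPM (SD, n = 3), a log2 fold change of 0.68 ± 0.07 (SE, edgeR adjusted p = 2.2e-05). Fcgr4, an activating IgG receptor, rose by 0.59 ± 0.09, and Clec4e (Mincle), a sensor of mycobacterial glycolipids and dead cells, by 0.40 ± 0.07 on the log2 scale (SE). Klrk1 (NKG2D), which signals through Hcst, fell from 24.6 ± 1.30 to 13.03 ± 0.637 CPM, a log2 fold change of -0.92 ± 0.11 (SE, edgeR adjusted p = 9.51e-05). Clec5a, a receptor coupled to Tyrobp, had a log2 fold change of -0.57 ± 0.09 and Clec4d of -0.45 ± 0.08 (SE), both called lower. Fcer1g, the other ITAM adaptor of myeloid cells, had a log2 fold change of 0.19 ± 0.09 and did not pass (edgeR adjusted p = 0.199). It was singled out after its value was seen. The count of changed genes was 7, 7, 6 and 7 without control replicate 1, 2 or 3 or DB2313 replicate 2, against 11 with all libraries.

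The Syk signalling chain moved little. Its list is not limited to genes below Syk, as it holds Src, whose family phosphorylates the ITAM before Syk is recruited. Of 37 genes tested, 1 rose, 4 fell and 32 did not pass, with a median log2 fold change of -0.030, and 13.5% were called against 10.6% of all genes tested. Rac2, a small GTPase of blood cells, rose by 0.23 ± 0.07 on the log2 scale (SE). Blnk, an adaptor that Syk phosphorylates, had a log2 fold change of -0.51 ± 0.12, Src of -0.32 ± 0.08 and Pik3cd, a catalytic subunit of phosphoinositide 3-kinase, of -0.24 ± 0.06 (SE, edgeR adjusted p from 0.0121 to 0.0288). These calls were not stable. None of the chain passed without control replicate 1, control replicate 2 or DB2313 replicate 2, 1 passed without control replicate 3, and 10 passed without DB2313 replicate 3. Among 28 inhibitors of the chain, 2 rose, 4 fell and 22 did not pass, with a median of -0.054 and 21.4% called against 10.6% of all genes tested. Clec12a, an inhibitory lectin that senses dead cells, rose by 0.46 ± 0.07 and the collagen receptor Lair1 by 0.35 ± 0.08 on the log2 scale (SE). The lipid phosphatase Inppl1 (-0.41 ± 0.08), the adaptor Dok2 (-0.37 ± 0.07) and the inhibitory receptor Cd200r1 (-0.43 ± 0.09, log2 fold change ± SE) fell. Dok2 overlaps Xpo7 on the other strand, with 822 to 1209 counts, and Inppl1 shares 915 bp with the antisense Gm10602 (2 to 15 counts). The counting is not stated to use strand. Without DB2313 replicate 3, 10 of the inhibitors passed.

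Of the ligands of TREM receptors and the enzymes that shed them, 2 of 24 tested rose, 3 fell and 19 did not pass (median log2 fold change -0.020), so that 20.8% were called against 10.6% of all genes tested. Apoe, an apolipoprotein that binds Trem2, fell from 228 ± 13.6 to 157 ± 2.46 CPM, a log2 fold change of -0.54 ± 0.07 (SE, edgeR adjusted p = 1.67e-04), while Trem2 itself rose. Psen2 rose by 0.30 ± 0.07 and Cirbp, a cold-inducible RNA-binding protein that binds Trem1 when released, by 0.52 ± 0.09 on the log2 scale (SE). Aph1b, another subunit of gamma-secretase, fell from 12.8 ± 1.30 to 6.49 ± 1.29 CPM, but it shares 2138 bp at 96.1% identity with Aph1c, so its value is uncertain. Sema6d, a ligand of the Plxna1 receptor that associates with Trem2 and Tyrobp, had a log2 fold change of -0.38 ± 0.11 (SE, edgeR adjusted p = 0.0453). The sheddases Adam10 (0.053 ± 0.08) and Adam17 (-0.17 ± 0.07, log2 fold change ± SE) did not pass, and these enzymes were named after their values were seen. Without control replicate 2 or DB2313 replicate 2, 3 genes of this list passed, and without DB2313 replicate 3, 9 did.

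Genes known from Trem2-positive lipid-laden macrophages changed in both directions. Of 31 tested, 4 rose, 10 fell and 17 did not pass, so that 45.2% were called against 10.6% of all genes, with a median log2 fold change of -0.087. Mmp12, an elastase of macrophages, rose from 619 ± 51.6 to 1219 ± 69.6 CPM (SD, n = 3 each), a log2 fold change of 0.98 ± 0.08 (SE, edgeR adjusted p = 1.34e-06). Ms4a7, a membrane protein of macrophages, rose from 7.33 ± 1.46 to 20.4 ± 2.10 CPM (log2 fold change 1.48 ± 0.16, SE), and the lysosomal protease Ctsl rose by 0.38 ± 0.08 on the log2 scale (SE). Spp1 (osteopontin) fell from 106 ± 9.87 to 56.4 ± 11.3 CPM (log2 fold change -0.91 ± 0.12, SE). Abcg1, which exports cholesterol, fell from 199 ± 10.9 to 135 ± 4.27 CPM (log2 fold change -0.56 ± 0.07, SE). Ctsl shares stretches with several other transcripts, and Mmp12 shares 160 bp with Mmp1b, which had no counts. The list holds 3 macrophage markers and 1 dendritic cell marker of the lists below, and without control replicate 2, 9 of its genes passed instead of 14.

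A list of inflammatory genes linked to Trem1 signalling was written from general knowledge, and amplification of each gene by Trem1 was not examined. Of 28 tested, 2 rose, 7 fell and 19 did not pass, with a median log2 fold change of -0.15. Thus 32.1% were called against 10.6% of all genes tested, of which 661 were higher and 842 lower. Cd14, a co-receptor for lipopolysaccharide, fell from 171 ± 9.87 to 92.8 ± 7.71 CPM (SD, n = 3 each), a log2 fold change of -0.88 ± 0.08 (SE, edgeR adjusted p = 6.39e-06). Il12b, a subunit of interleukin-12 and interleukin-23, fell from 31.1 ± 1.77 to 15.4 ± 1.95 CPM, and Tlr2 from 172 ± 2.94 to 122 ± 11.8 CPM. Mmp8, a collagenase and also 1 of the neutrophil markers below, rose from 324 ± 37.7 to 636 ± 61.4 CPM (log2 fold change 0.98 ± 0.09, SE), and the chemokine Ccl4 rose by 0.62 ± 0.18 on the log2 scale (SE, edgeR adjusted p = 0.0367). The groups overlapped for Ccl4, and its call was lost with the replicate block and without control replicate 1, control replicate 2, DB2313 replicate 1 or DB2313 replicate 2. Without control replicate 1 or DB2313 replicate 2 the count was 6.

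**Figure D5:**
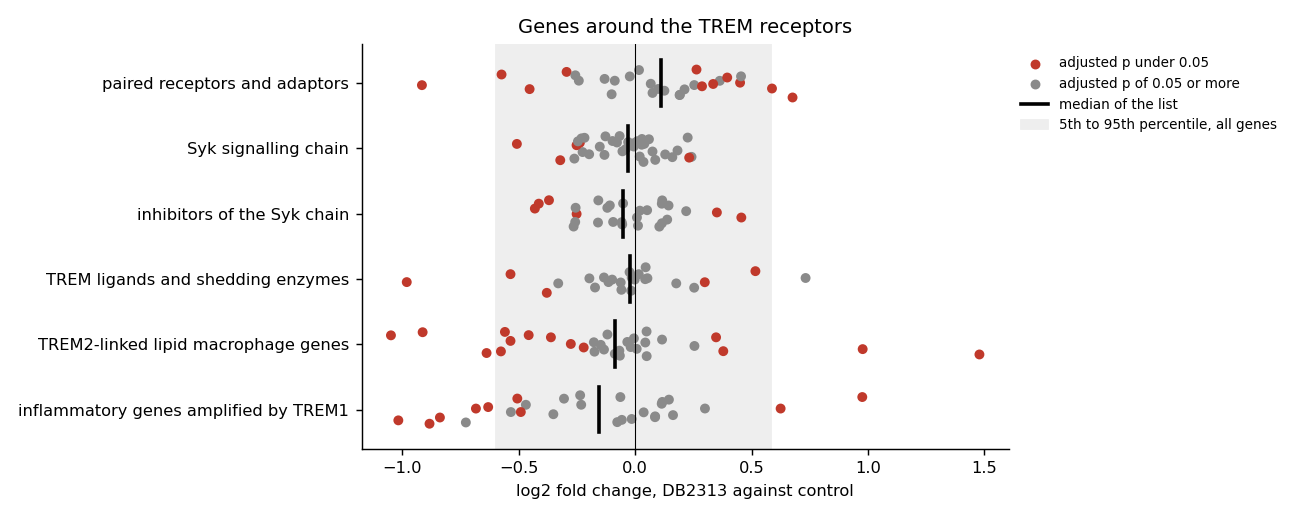
Log2 fold change of every tested gene of the 6 lists around the TREM receptors, DB2313 against control, 1 point per gene with vertical jitter for clarity. Red points passed an adjusted p under 0.05, black bars are list medians, and the grey band holds the 5th to 95th percentile of all genes. Points lie on both sides of 0 in each list, and the medians run from -0.15 for the inflammatory genes to 0.11 for the paired receptors.

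Markers of cell types that the cultures could hold were counted against the 10.6% of all genes tested that were called. The share called was 64.7% for macrophage, 50% for osteoclast, 38.9% for neutrophil, 31.6% for dendritic cell and 20% for mast cell and basophil markers. It was 11.1% for platelet, 10% for natural killer cell, 8.33% for T cell and 0% for B cell markers. The range of the summed level overlapped between the groups for every list except that of B cells. Of 18 neutrophil markers, which include 5 genes of the inflammatory list, 6 rose (Ly6g, Elane, Ctsg, Retnlg, Mmp8 and Cebpe) and 1 fell (Csf3r). Their summed level was 5722 to 6305 CPM in control and 6172 to 7658 CPM with DB2313, led by Ngp and S100a9, which did not pass. Of 17 macrophage markers tested, 2 rose and 9 fell, with summed levels of 11375 to 12832 and 10418 to 11453 CPM, led by Lyz2 and Gpnmb. Of 19 dendritic cell markers tested, 3 rose and 3 fell (summed 18408 to 19164 and 15529 to 18446 CPM, led by Cd74 and Ccl22). Of 10 osteoclast markers tested, 2 rose and 3 fell, with Calcr at 0 in all libraries and summed levels of 642 to 664 and 662 to 675 CPM, led by Mmp9 and Car2. Mast cell and basophil markers, led by Prss34 and Mcpt8, summed to 2573 to 2774 and 2629 to 3136 CPM, with 2 of 10 higher. Natural killer cell markers, led by Il2rb and Gzmb, summed to 375 to 455 and 380 to 486 CPM, with Ncr1 at 0.333 and 0.219 CPM and Klrk1 as the 1 gene of 10 that fell. T cell markers, led by Lck and Trbc2, summed to 237 to 269 and 243 to 349 CPM, with 1 of 12 higher. Platelet markers, led by Itga2b and Itgb3, summed to 310 to 344 and 342 to 380 CPM, with 1 of 9 higher. B cell markers, led by Ighm and Cd79b, summed to 38.1 to 42.2 and 43.5 to 48.5 CPM, without overlap. Only 3 of these 10 genes were tested and 0 were called, with log2 fold changes in both directions (-0.89 to 0.70). The edgeR adjusted p was 0.149 for Ighm and 0.0873 for Cd79b. The part of any of these cell types in the rises of Trem1, Trem2 and Tyrobp was not tested. Nor was it tested for the lower mean of Treml4, which did not pass.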

How the data were processed

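RNA-seq was analysed for 3 control and 3 DB2313 libraries. The deposited table held whole-number counts of reads for every gene, not normalised, and the gene lengths. The processing notes of the submitters named CASAVA 1.8, HISAT2 2.0.5 and featureCounts 1.5.0-p3, whereas the methods of the study named LifeScope. Strandedness and how multi-mapped reads were treated were not given in the sources used here. All 8 genes had the same coordinates in GENCODE M21 (GRCm38), as had 98.3% of the 54409 shared identifiers. Columns were matched to samples by their short names and numbers.

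Counts were tested with edgeR 4.0.16 in R 4.3.3 (quasi-likelihood test, TMM, filterByExpr, a model with group alone), and p-values were adjusted by Benjamini-Hochberg over 14174 genes, of which 3309 had an unadjusted p under 0.05. All adjusted p-values of genes come from this fit unless another is named. Log2 fold changes are DB2313 against control. Alternatives were DESeq2 1.42.0, limma-voom (limma 3.58.1), other scalings and filters, protein-coding genes only, an offset for gene length (loess, span 0.3), the replicate number as a block and leaving out each library. Scripts were checked on simulated counts. The likeness of genes used log2(CPM + 0.5). Near-identical copies were searched with blastn among GENCODE transcripts (95% identity over at least 100 bp), and the 8 genes had none.

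The 8 genes and the 15 lists, written from general knowledge, were chosen with earlier results of these data known. Of each of the 6 lists around the receptors, up to 3 genes higher and 3 lower with the lowest adjusted p were named, and of each marker list the 2 most abundant, beside any gene singled out in the text. No label gave a batch or date.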

Additional observations from a re-analysis of the deposited data

How the results depend on the processing

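Trem1 kept its direction and its call in all 15 alternatives (log2 fold change 0.88 to 0.96, highest adjusted p 6.5e-04), as did Trem2 (0.40 to 0.47, highest adjusted p 0.0171). Trem3 and Treml2 passed in none. The call of Tyrobp was lost with the gene length offset (0.11) and with the replicate block (0.21, adjusted p = 0.165), and with 1 library left out at a time its log2 fold change ran from 0.19 to 0.24. Treml4 passed with no filter (-0.58), with protein-coding genes only (-0.58) and with the gene length offset (-0.63), and ran from -0.69 to -0.47 without 1 library, so that 1 of the 8 genes was called lower in these 3 fits and 0 to 1 in those that left out a library. Hcst passed with no filter (0.42) and ran from 0.25 to 0.53 without 1 library. The sign of Syk turned with the gene length offset (0.023) and without DB2313 replicate 1 (0.018), the range without 1 library being -0.081 to 0.018, and it passed in none. The cause of these shifts was not tested.

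Over the fits without 1 library, which by construction have fewer samples, the genes called were 6 to 12 of the paired receptors, 0 to 10 of the Syk chain, 4 to 10 of its inhibitors, 3 to 9 of the ligands and enzymes, 9 to 16 of the lipid macrophage genes and 6 to 11 of the inflammatory genes. Over all genes they were 328 to 1097 higher (highest without DB2313 replicate 3, lowest without DB2313 replicate 2) and 411 to 1311 lower (likewise). The count of the Syk chain was 8 with the gene length offset and 1 with the replicate block. Libraries with equal replicate numbers were not alike (correlations of deviations -0.0080, -0.019 and -0.15, and 0 of 6 libraries closest to their own number). The labels do not say whether equal numbers mark pairs, and so few libraries cannot decide it. With the replicate block 502 genes were higher and 629 lower. Of the 30 genes named from the lists, 26 stayed called with the replicate block (all but Rac2, Src, Pik3cd and Ccl4), 29 with library totals (all but Sema6d) and all 30 in the other 7 fits on 6 libraries. Between 23 and 30 stayed called without 1 library. At 83 counts for Treml4 and 119 for Trem3 at the least, counting error limits these 2 genes more than the others.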
